A study of Mus musculus with 8 samples.

Results

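The genes described here are 10 cytokine genes of the IL-6, IL-10 and IL-12 types, *Il6*, *Osm*, *Lif*, *Csf3*, *Il10*, *Il12a*, *Il12b*, *Il23a*, *Il27* and *Ebi3*. They were taken by symbol from a table of 55401 mouse genes, and each symbol matched 1 row. RNA-seq was performed on hepatic macrophages, cells pulled from the non-parenchymal fraction of C57BL/6J mouse livers with an antibody against F4/80, and cultured for 24 h with vehicle (Veh) or 500 μg/ml cholesterol crystals (CC). The normal livers were those of WT mice on a standard diet, and the steatotic livers those of MC4R-KO mice, which lack the melanocortin 4 receptor, fed a Western diet over 6 to 10 weeks. There were 8 libraries, 2 in each of 4 groups: normal Veh, normal CC, steatotic Veh and steatotic CC. Genotype and diet differ together between the livers and cannot be told apart, all groups share the isolation and culture, and the age of the donor mice of these libraries and the number pooled in each are not stated for them in the sources used here.

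IL-6, oncostatin M (*Osm*) and LIF signal through receptors that share gp130 (*Il6st*), and activate JAK kinases and STAT3. G-CSF (*Csf3*), a related helical cytokine with its own receptor, drives the production of neutrophils. IL-10, which also signals through STAT3, is the classical anti-inflammatory cytokine of macrophages and restrains their production of IL-6 and IL-12. The IL-12 type cytokines are heterodimers that share subunits: p35 (*Il12a*) with p40 (*Il12b*) makes IL-12, p19 (*Il23a*) with p40 makes IL-23, and p28 (*Il27*) with EBI3 (*Ebi3*) makes IL-27. In the liver, IL-6 from Kupffer cells, the resident macrophages, is known for inducing the acute phase response of hepatocytes.

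The deposited counts were scaled to the total of each library (CPM), and a gene was tested when it reached 0.5 CPM in at least 1 library, which left 15202 genes. Total counts were 58668655 to 74529462 per library. Of the 10 cytokine genes, 8 passed this filter. *Il12b* and *Il23a* did not, and *Il12a* passed only through a single library labelled steatotic CC. *Mc4r*, the gene disrupted in the MC4R-KO mice, had 0 counts in the 4 libraries labelled normal and 22 to 72 in the 4 labelled steatotic, which goes against the labels unless reads still come from the disrupted allele, and every direction between the livers rests on the labels. The 9 macrophage markers summed to 8390 to 15700 CPM. Other cell types were far lower. The neutrophil marker *Ly6g* was at 0 in every library, the sum of the hepatocyte markers was 47.7 to 57.5 CPM with the label normal and 1.73 to 2.47 with the label steatotic, and that of the T and NK cell markers 0.511 to 0.861 and 11.3 to 15.4 CPM. In these bulk samples, fewer cells of a type and less RNA per cell cannot be told apart.

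Promoter sequences are shown for *Il6*, *Lif* and *Ebi3* because these genes differed in level and in response. Of the 10 genes, 5 matched the RefSeq promoter table of GRCm38.p6 (*Il6*, *Lif*, *Il12a*, *Il12b* and *Ebi3*), and *Osm*, *Csf3*, *Il10*, *Il23a* and *Il27* had no entry. The 250 bases before the start are printed 5′ to 3′ on the plus strand, which is the strand of all 3 genes. They span chr5:30012864-30013113 (*Il6*), chr11:4257318-4257567 (*Lif*) and chr17:55952373-55952622 (*Ebi3*). Capitals mark matches to the letters searched on both strands for NF-kB (GGGANTTTC), C/EBP (TTGCNNAA) and AP-1 (TGANTCA). No match overlapped another.
Il6: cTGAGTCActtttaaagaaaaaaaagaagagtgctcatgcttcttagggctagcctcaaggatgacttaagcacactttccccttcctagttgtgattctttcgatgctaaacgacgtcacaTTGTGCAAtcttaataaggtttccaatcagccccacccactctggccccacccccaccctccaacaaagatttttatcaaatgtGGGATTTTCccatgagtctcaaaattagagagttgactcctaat
Lif: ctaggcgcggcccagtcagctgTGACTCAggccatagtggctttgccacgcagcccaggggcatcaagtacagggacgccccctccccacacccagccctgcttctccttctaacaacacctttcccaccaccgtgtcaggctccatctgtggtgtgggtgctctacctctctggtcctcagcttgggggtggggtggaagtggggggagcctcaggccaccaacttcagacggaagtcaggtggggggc
Ebi3: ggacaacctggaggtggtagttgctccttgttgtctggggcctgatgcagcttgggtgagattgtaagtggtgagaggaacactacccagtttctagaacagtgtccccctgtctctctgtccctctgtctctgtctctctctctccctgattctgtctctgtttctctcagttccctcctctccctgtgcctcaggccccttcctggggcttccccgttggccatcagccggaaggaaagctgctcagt
The *Il6* window held all 3 motifs, the NF-kB letters at −44 to −36 from the start, the C/EBP letters at −128 to −121 on the minus strand and the AP-1 letters at −249 to −243. The *Lif* window held the AP-1 letters at −228 to −222, and the *Ebi3*, *Il12a* and *Il12b* windows held none of the 3. Among 32536 promoter windows of 250 bases, 0.944% held the NF-kB letters, 9.57% those of C/EBP and 6.73% those of AP-1. The letters of CRE (TGACGTCA, 1.56% of windows), the interferon-stimulated response element (GAAANNGAA, 7.15%), STAT (TTCNNNGAA, 7.04%), EGR (GCGNGGGCG, 4.74%) and the TATA box (TATAAA, 12.3%) were in none of these windows. A match is a description of the letters and not of binding.

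The 3′ UTRs of most of these genes were rich in the pentamer ATTTA, the core of the AU-rich elements through which short-lived cytokine mRNAs are known to be degraded. In GENCODE M21, the principal transcripts of *Il6*, *Osm*, *Csf3*, *Il10*, *Il12a*, *Il12b* and *Il23a* carried 6 pentamers each, *Lif* 7 and *Il27* 5, whereas *Ebi3* carried 1. Against 3′ UTRs of like length (within 25%) of tested genes, at least as many pentamers were found in 0.274% for *Il6*, 1.4% for *Csf3*, 1.62% for *Il10*, 3.92% for *Osm* and 0.165% for *Il27*, but in 33.5% for *Lif*, whose 3′ UTR is 3180 bases long, and 32.0% for *Ebi3*. One stretch of 30 bases per gene is shown for the 4 genes that changed with CC and for *Ebi3*, with the pentamers in capitals. In GRCm38 the stretches lie on the plus strand at chr5:30019691-30019720, chr11:4240952-4240981, chr11:98702995-98703024, chr1:131024468-131024497 and chr17:55956972-55957001.
Il6 site: ATTTAttgataATTTAaataagtaaacttt
Osm site: tttataaggcctATTTAtaatgtatATTTA
Csf3 site: tatctctATTTAatATTTAtgcatATTTAa
Il10 site: aagcccaatattataattttacagtATTTA
Ebi3 site: gtgaactttgtgATTTAattagaaagacgg

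*Ebi3* had the highest level of the 10 genes in every library. Per kb of exon, so that genes can be compared, its level was 31.1 ± 0.895 CPM (SD, n = 2) in normal Veh, 30.5 ± 0.0676 in normal CC, 34.7 ± 0.351 in steatotic Veh and 36.8 ± 0.346 in steatotic CC. *Ebi3* made up 61.3% to 74.7% of the summed level of the 10 genes per kb. *Il10* came next in every group, with 4.79 ± 0.778, 4.32 ± 0.51, 15.2 ± 0.0858 and 9.35 ± 0.243 CPM per kb. Its share of the sum was 9.68% to 13.0% in the libraries labelled normal, 27.0% and 27.1% in steatotic Veh, and 16.1% and 16.3% in steatotic CC. *Il27* and *Csf3* followed with Veh. In normal Veh they were at 2.36 ± 0.41 and 2.25 ± 0.145 CPM per kb, an order within their spread, and in steatotic Veh at 3.2 ± 0.0861 and 1.22 ± 0.0147. *Il6*, *Osm* and *Lif* lay between 0.242 and 0.63 CPM per kb in normal Veh. In steatotic CC, *Osm* (2.49 ± 0.0519) and *Il6* (2.25 ± 0.278) stood within their spread of each other and far above *Lif* (0.44 ± 0.151). The *Il6* values use all annotated exons. On its principal transcript of 1141 bases alone they would be 1.34, 2.31, 1.03 and 4.78 CPM per kb, which places *Il6* above *Osm*, *Il27* (2.83 ± 0.117) and the mean of *Csf3* (3.3 ± 1.28) in steatotic CC and above *Il27* (mean 1.59) in normal CC. The order of *Il6* among these genes thus depends on the length used.

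**Figure D1:**
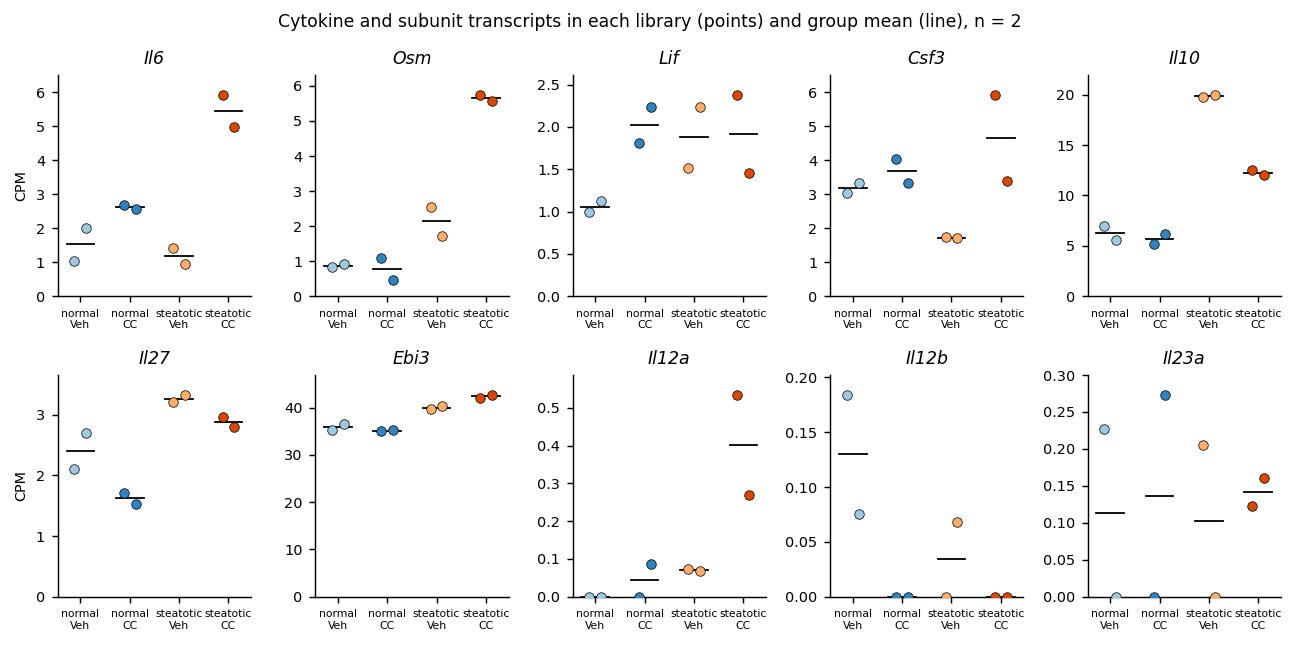
Level of each of the 10 cytokine genes in CPM (vertical axes, each with its own scale) in the 8 libraries, grouped by the labels normal or steatotic and by Veh or CC, with 1 point per library. *Il10* is highest in steatotic Veh (19.8 and 20 CPM), while *Il6* and *Osm* are highest in steatotic CC.

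The first question was how CC changed these genes in macrophages from steatotic livers. *Il6*, *Osm* and *Csf3* rose and *Il10* fell with CC. The counts of calls were 3 higher and 1 lower among the 8 tested genes, beside 12.0% higher and 10.9% lower among all tested genes (edgeR quasi-likelihood test, Benjamini-Hochberg adjusted p under 0.05). Without *Il12a*, which was near 0 counts, the median log2 fold change was 0.10 over 7 genes and 0 over all tested genes. The *Il6* level was 1.41 and 0.938 CPM with Veh and 5.93 and 4.98 CPM with CC. Both CC libraries thus lay above both Veh libraries, as in 29.1% of all tested genes. The increase was 4.71-fold (log2 fold change 2.24, SE 0.344, 95% interval 1.43 to 3.04, adjusted p = 0.00276). *Osm*, which acts on hepatocytes, endothelial and stellate cells through the OSM receptor, was at 2.55 and 1.73 CPM with Veh and at 5.75 and 5.58 CPM with CC. It rose 2.68-fold (log2 fold change 1.42, SE 0.353, adjusted p = 0.0241), a call that depended on single libraries. Without steatotic Veh replicate 2 the log2 fold change was 1.17 (adjusted p = 0.132 by edgeR), and without steatotic CC replicate 1 or 2 it was 1.40 or 1.45 (adjusted p = 0.0918 or 0.0781). *Csf3* was at 1.74 and 1.71 CPM with Veh and at 5.93 and 3.38 CPM with CC. It rose 2.72-fold (log2 fold change 1.45, SE 0.276, adjusted p = 0.00773), and its CC libraries differed more from each other than its Veh libraries.

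*Il10* moved the other way. Its level was 19.8 and 20 CPM in steatotic Veh and 12.5 and 12.0 CPM in steatotic CC, with close replicates in both groups. It fell 1.61-fold (log2 fold change −0.68, SE 0.135, 95% interval −1.0 to −0.37, edgeR adjusted p = 0.00894), and without steatotic CC replicate 2 the change was −0.66 with an adjusted p of 0.0505. *Lif*, the neighbour of *Osm* on chromosome 11, 16531 bases away on the same strand, was at 1.52 and 2.23 CPM with Veh and 2.38 and 1.45 CPM with CC, ranges that overlapped (log2 fold change 0.04, 95% interval −0.69 to 0.78, adjusted p = 0.945 by edgeR). *Il27* was at 3.21 and 3.33 CPM with Veh and 2.97 and 2.80 CPM with CC (log2 fold change −0.16, adjusted p = 0.623 by edgeR). *Ebi3* was at 39.7 and 40.3 CPM with Veh and 42.1 and 42.7 CPM with CC (log2 fold change 0.10, 95% interval −0.03 to 0.23, adjusted p = 0.26 by edgeR), so that a change beyond 0.23 on the log2 scale lay outside its interval.

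Genes used as markers of cell types were measured alongside these responses. Of the 6 neutrophil markers only *S100a8* was tested, and it rose with CC in steatotic libraries from 4.87 to 18.8 CPM (log2 fold change 1.97, edgeR adjusted p = 4.02e-05). *Ly6g* was at 0 throughout, and *S100a9* was at 0.282 CPM at most. The 4 stellate cell markers summed to 17.6 to 20.9 CPM in steatotic Veh and 108 to 135 CPM in steatotic CC, nearly all of it *Dcn*, since *Lrat*, *Col1a1* and *Des* did not reach the filter. The 9 macrophage markers summed to 9950 to 10200 and 8390 to 9230 CPM, with 2 higher and 6 lower (12.0% and 10.9% of all tested genes), among them *Vsig4* from 587 to 85.8 CPM. The 4 endothelial markers summed to 148 to 150 and 112 to 113 CPM, with 2 higher (*Stab2* and *Kdr*) and *Pecam1* lower, from 95.2 to 38.1 CPM (edgeR adjusted p = 3.91e-05). The 4 B cell markers summed to 2.59 to 2.88 and 0.854 to 1.26 CPM, with 0 higher and 1 lower (*Ms4a1*, from 1.71 to 0.649 CPM). Any part of such cells in the cytokine values was not tested.

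The second question was whether CC acted likewise in macrophages from normal livers. None of the 8 tested genes passed an adjusted p of 0.05 by edgeR or by DESeq2, beside 6.27% of all tested genes higher and 5.54% lower by edgeR. At an unadjusted p under 0.05, 3 genes passed (*Il6*, *Lif* and *Il27*), as did 25.2% of all tested genes. *Il6* was at 1.03 and 2.02 CPM with Veh and 2.69 and 2.57 CPM with CC. Both CC libraries lay above both Veh libraries, as in 22.8% of all tested genes. The Veh libraries differed from each other by about as much as the groups did (log2 fold change 0.82, SE 0.336, 95% interval 0.04 to 1.61, adjusted p = 0.179 by edgeR). Without normal Veh replicate 2, the higher of the Veh libraries, it was 1.39 with an adjusted p of 0.0491, and without normal Veh replicate 1, the lower one, 0.42 with an adjusted p of 0.506. *Lif* was at 0.992 and 1.12 CPM with Veh and 1.81 and 2.23 CPM with CC (log2 fold change 0.97, 95% interval 0.22 to 1.73, adjusted p = 0.104 by edgeR), the largest fitted value here among the genes above the counting floor. *Il27* was at 2.11 and 2.70 CPM with Veh and 1.71 and 1.53 CPM with CC (log2 fold change −0.53, SE 0.197, adjusted p = 0.142 by edgeR).

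*Osm*, *Csf3*, *Il10* and *Ebi3* had small fitted values in normal macrophages. *Osm* was at 0.822 and 0.906 CPM with Veh and 1.09 and 0.477 CPM with CC, so the CC libraries lay on both sides of the Veh libraries (log2 fold change −0.10, 95% interval −0.99 to 0.79, adjusted p = 0.915 by edgeR). *Csf3* was at 3.03 and 3.32 CPM with Veh and 4.04 and 3.32 CPM with CC (log2 fold change 0.25, 95% interval −0.38 to 0.88). *Il10* was at 7.0 and 5.56 CPM with Veh and 5.19 and 6.14 CPM with CC, ranges that overlapped (log2 fold change −0.11, 95% interval −0.44 to 0.21). *Ebi3* was at 35.2 and 36.6 CPM with Veh and 35.1 and 35.2 CPM with CC, and its interval of −0.12 to 0.14 was the narrowest of the set.

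The difference between the responses, steatotic minus normal, was tested in the same model. None of the 8 genes passed by edgeR or DESeq2, beside 1.95% of all tested genes with a higher and 1.27% with a lower response in steatotic libraries by edgeR. At an unadjusted p under 0.05, the 4 genes called in steatotic macrophages passed (*Il6*, *Osm*, *Csf3* and *Il10*), as did 14.2% of all tested genes. The differences were 1.41 for *Il6* (95% interval 0.31 to 2.52, edgeR adjusted p = 0.215), 1.52 for *Osm* (0.31 to 2.74, adjusted p = 0.223), 1.20 for *Csf3* (0.30 to 2.09, adjusted p = 0.192) and −0.57 for *Il10* (−1.02 to −0.12, adjusted p = 0.218) on the log2 scale. Without steatotic CC replicate 2 the difference for *Csf3* was 1.55 with an adjusted p of 0.0434, and without steatotic CC replicate 1 it was 0.73 with an adjusted p of 0.344. The difference for *Osm* was 2.24 without normal CC replicate 1 (edgeR adjusted p = 0.0547) and 1.05 without normal CC replicate 2 (adjusted p = 0.311). The difference for *Il6* was 1.81 without normal Veh replicate 1 and 0.85 without normal Veh replicate 2. The responses of these 4 genes were therefore not shown to differ between the livers after adjustment.

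**Figure D2:**
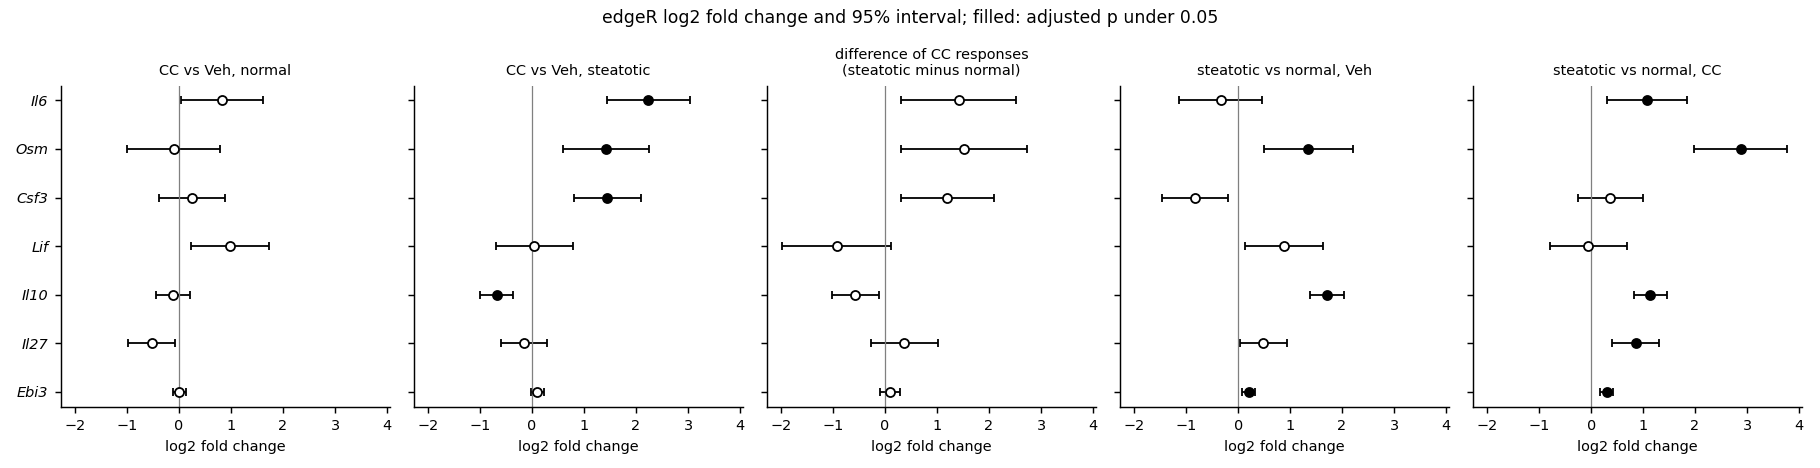
Log2 fold change (horizontal axes) of 7 cytokine genes in the 5 comparisons, with bars for the 95% interval and filled points for an adjusted p under 0.05 by edgeR. *Il12a* is left out because its counts were near 0, and *Il12b* and *Il23a* were not tested. Filled points stand at *Il6*, *Osm*, *Csf3* and *Il10* for CC against Veh in steatotic libraries and at none for CC against Veh in normal libraries or for the difference.

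The third question was how the livers differed. With Veh, *Il10*, *Osm* and *Ebi3* were higher in libraries labelled steatotic, 3 of 8 tested genes higher and 0 lower, beside 16.4% and 14.3% of all tested genes (edgeR, adjusted p under 0.05). Without *Il12a* the median log2 fold change was 0.49 over 7 genes and −0.01 over all tested genes. *Il10* stood at 7.0 and 5.56 CPM in normal Veh against 19.8 and 20 CPM in steatotic Veh, 3.27-fold higher (log2 fold change 1.71, SE 0.139, adjusted p = 7.93e-05 by edgeR). *Osm* was 2.55-fold higher (log2 fold change 1.35, SE 0.369, adjusted p = 0.0281 by edgeR). Its adjusted p was 0.127 without normal Veh replicate 1, 0.0967 without normal Veh replicate 2 and 0.135 without steatotic Veh replicate 1. *Ebi3* was 1.15-fold higher, 0.20 on the log2 scale (SE 0.056, adjusted p = 0.0293 by edgeR). This small difference missed the threshold with DESeq2 (adjusted p = 0.054), and when any one of the 4 Veh libraries was left out (adjusted p = 0.0617 to 0.137 by edgeR). *Csf3* had the lowest value of the 8 genes, −0.83 (95% interval −1.47 to −0.19, adjusted p = 0.0553 by edgeR), and passed with DESeq2 (adjusted p = 0.0432). *Il6* did not pass (log2 fold change −0.34, adjusted p = 0.509 by edgeR), and *Lif* was at 0.88 (adjusted p = 0.0783). Markers of cell types moved with this comparison as well. From normal Veh to steatotic Veh the dendritic cell markers summed to 5.21 to 5.44 and 9.43 to 9.62 CPM, with 2 of 5 higher (*Xcr1* from 1.09 to 6.5 CPM) and 2 lower. The endothelial markers summed to 61.3 to 65.7 and 148 to 150 CPM, with 2 higher and 1 lower. *Pecam1* went from 26.1 to 95.2 and *Kdr* from 11.7 to 33.9 CPM, whereas *Stab2* fell from 25.7 to 19.8 CPM. The stellate cell markers summed to 2.41 to 2.49 and 17.6 to 20.9 CPM (*Dcn* from 2.1 to 19.1). The 9 macrophage markers summed to 15200 to 15700 and 9950 to 10200 CPM, with 4 higher and 4 lower. Among them, *Adgre1* went from 1070 to 1730 CPM and *Lyz2* from 8070 to 3510 CPM. Any part of such cells in the cytokine values was not tested.

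With CC, *Il6*, *Osm*, *Il10*, *Il27* and *Ebi3* were higher in libraries labelled steatotic, 5 of 8 tested genes higher and 0 lower, beside 15.9% and 12.9% of all tested genes (edgeR, adjusted p under 0.05). The largest was *Osm*, 7.33-fold higher (log2 fold change 2.87, SE 0.382, adjusted p = 0.00116), with 1.09 and 0.477 CPM in normal CC against 5.75 and 5.58 CPM in steatotic CC. Its log2 fold change was 3.59 without normal CC replicate 1 and 2.40 without normal CC replicate 2. *Il10* was 2.2-fold higher (log2 fold change 1.14, SE 0.138, adjusted p = 0.000748 by edgeR). *Il6* was 2.11-fold higher (log2 fold change 1.08, SE 0.329, adjusted p = 0.0449 by edgeR), and its adjusted p was 0.0898 to 0.165 when any one of the 4 CC libraries was left out. *Il27* was 1.81-fold higher (log2 fold change 0.86, SE 0.197, adjusted p = 0.0146 by edgeR), with an adjusted p of 0.075 without normal CC replicate 2 and 0.061 without steatotic CC replicate 1. *Ebi3* was 1.23-fold higher (log2 fold change 0.30, adjusted p = 0.00628). *Lif* (−0.05, adjusted p = 0.925) and *Csf3* (0.36, adjusted p = 0.368) did not pass by edgeR. Each of these comparisons shares libraries with the comparisons of CC against Veh. From normal CC to steatotic CC, the stellate cell markers summed to 5.76 to 7.19 and 108 to 135 CPM (*Dcn* from 6.35 to 121). The endothelial markers summed to 66.1 to 67.7 and 112 to 113 CPM (*Kdr* from 14.3 to 49.7), with 2 higher and 0 lower. *Stab2*, at 28.7 and 24.9 CPM, did not pass. The hepatocyte markers summed to 47.7 to 55.4 and 2.26 to 2.47 CPM. The 5 dendritic cell markers summed to 9.72 to 10.4 and 8.28 to 8.99 CPM, with 1 higher (*Xcr1* from 0.936 to 4.73 CPM) and 2 lower. The lower ones were *Ccr7* (5.28 to 0.961 CPM) and *Flt3* (0.87 to 0.0268 CPM), which reached the filter only through libraries labelled normal, where it was high. The 9 macrophage markers summed to 12100 to 12300 and 8390 to 9230 CPM, with 4 higher and 4 lower. Any part of such cells in the cytokine values was not tested.

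The balance of *Il10* to *Il6* mRNA followed from these values. The ratio of their CPM was 6.77 and 2.75 in normal Veh, 1.93 and 2.38 in normal CC, 14.1 and 21.3 in steatotic Veh, and 2.1 and 2.42 in steatotic CC. It was highest in steatotic Veh, and the ranges of normal CC and steatotic CC overlapped. The ratio of *Osm* to *Il10* was 0.117 and 0.163 in normal Veh, 0.21 and 0.0778 in normal CC, 0.128 and 0.0863 in steatotic Veh, and 0.461 and 0.464 in steatotic CC. The normal CC libraries lay on both sides of the normal Veh libraries.

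**Figure D3:**
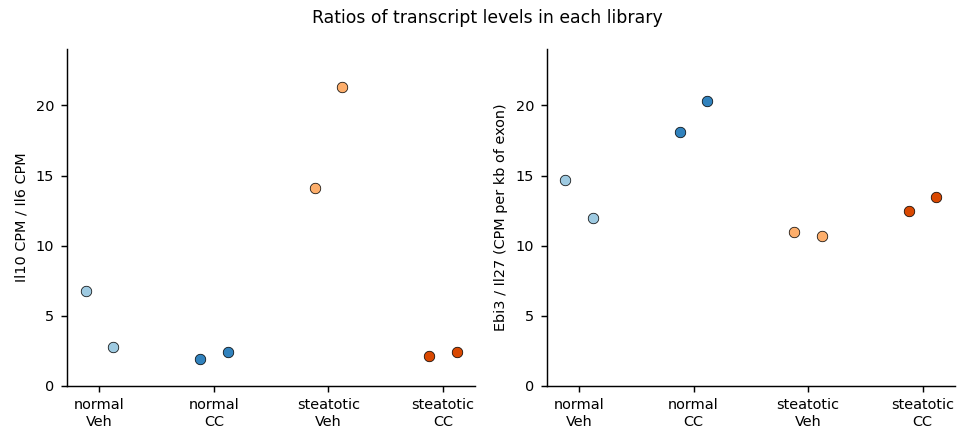
Ratio of *Il10* to *Il6* in CPM (left) and of *Ebi3* to *Il27* in CPM per kb of exon (right) in each of the 8 libraries, with 1 point per library. The *Il10* to *Il6* ratio is 14.1 and 21.3 in steatotic Veh and 2.1 and 2.42 in steatotic CC, and the *Ebi3* to *Il27* ratio is 10.7 to 20.3 over all libraries.

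The subunits of the IL-12 type cytokines were very unequal. The *Ebi3* level per kb was 14.7 and 12.0 times that of *Il27* in normal Veh, 18.1 and 20.3 times in normal CC, 11.0 and 10.7 times in steatotic Veh, and 12.5 and 13.5 times in steatotic CC, so that *Ebi3* exceeded its IL-27 partner in every library. The *Il27* locus (chr7:126589010-126594941, minus strand) overlaps *Apobr* on the other strand, and *Ebi3* (chr17:55952640-55957022, plus strand) overlaps the antisense gene *Gm16712*. The library kit marks strand, but whether the counting used it is not stated, so the small values of *Il27* are uncertain beside *Apobr* at 223 to 279 CPM (group means). *Apobr* itself was higher in libraries labelled steatotic (log2 fold change 0.20 with Veh, adjusted p = 0.00747, and 0.35 with CC, adjusted p = 0.000476, by edgeR), and its part in the *Il27* values was not tested.

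The subunits of IL-12 and IL-23 were near or at the limit of detection. *Il12a* had 0 and 0 counts in normal Veh, 0 and 5 in normal CC, 5 and 5 in steatotic Veh, and 35 and 20 in steatotic CC. Since 1 fragment appeared to stand for about 4 counts, 3 fragments correspond to 0.161 to 0.205 CPM, and among the *Il12a* libraries both of steatotic CC (0.534 and 0.268 CPM) exceeded this floor. Because *Il12a* entered the test only through a library of the group where it was highest, nothing is read from its fitted values, and it counts among the 8 tested genes without a call. *Il12b* had 13 and 5 counts in normal Veh and 5 counts in 1 of the other 6 libraries. *Il23a* had 0 to 16 counts per library, with no group set apart from the others. At this depth, a transcript of the shared p40 subunit was not detectable with CC in either liver, which allows up to the floor of 3 fragments.

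The receptors of these cytokines were at very unequal levels. *Il10rb*, *Il6ra*, *Il6st*, *Csf3r* and *Il10ra* made up nearly all of the 658 to 820 CPM to which the 11 receptor genes summed, and the other 6 never exceeded 3 CPM in a library. CC lowered *Il6ra* and *Csf3r* with both labels (0 higher and 2 lower of 11 in each, beside 5.54% of all tested genes lower in normal and 10.9% in steatotic libraries). *Il6ra*, the ligand-binding chain for IL-6, was at 109 ± 2.14 CPM in normal Veh and 86.3 ± 2.16 in normal CC (log2 fold change −0.29, adjusted p = 0.00406 by edgeR), and at 130 ± 2.08 in steatotic Veh and 89.4 ± 0.57 in steatotic CC (−0.52, adjusted p = 0.000105). The receptor for G-CSF, *Csf3r*, was at 81.2 ± 0.134, 60.4 ± 1.65, 153 ± 4.58 and 126 ± 1.28 CPM in the 4 groups. Thus in steatotic macrophages *Il6* and *Csf3* rose with CC while *Il6ra* and *Csf3r* fell. With Veh, 5 receptor genes were higher in libraries labelled steatotic (*Csf3r*, *Il6ra*, *Il10rb*, *Il12rb1* and *Il12rb2*), and with CC 4 of these were, all but *Il6ra*, beside 16.4% and 15.9% of all tested genes. The IL-12 receptor chains *Il12rb1* (0.0585 and 1.57 CPM in normal and steatotic Veh) and *Il12rb2* (0.177 and 1.38 CPM) are typical of T and NK cells. Both chains reached the filter only through the libraries labelled steatotic, where they were high, so their calls were favoured by the filter. The 6 markers of T and NK cells, which likewise stayed under the filter in every library labelled normal, summed to 0.652 to 0.861 CPM in normal Veh and 13.2 to 15.4 CPM in steatotic Veh. Their part in the values of these chains was not tested. The common chain *Il6st* ranged from 56.8 to 133 CPM with a wide spread between replicates and passed in no comparison. Of 10 further cytokine genes of these families only *Clcf1* was tested. It rose with CC in steatotic libraries from 15.7 ± 0.853 to 24.2 ± 2.07 CPM (log2 fold change 0.64, adjusted p = 0.00707 by edgeR).

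Among 8 genes of JAK, STAT and SOCS proteins, CC raised 2 in normal libraries (*Jak1* and *Socs3*) and 3 in steatotic libraries (*Jak1*, *Jak2* and *Socs3*), where *Tyk2* fell, beside 6.27% of all tested genes higher in normal and 12.0% higher and 10.9% lower in steatotic libraries. *Socs3*, a STAT3 target that inhibits gp130 signalling, was at 98.5 ± 4.44 CPM in normal Veh, 138 ± 3.19 in normal CC, 155 ± 3.24 in steatotic Veh and 232 ± 5.95 in steatotic CC. It rose with CC by 0.52 (adjusted p = 0.000545) and 0.60 (adjusted p = 0.000102) on the log2 scale by edgeR. *Jak2* went from 115 ± 3.26 to 166 ± 1.64 CPM with CC in steatotic libraries and from 76.6 ± 2.91 to 82.3 ± 4 CPM in normal libraries, and the difference between these responses passed (0.41, adjusted p = 0.0276 by edgeR). *Stat3* was higher in libraries labelled steatotic with Veh (log2 fold change 0.39, adjusted p = 0.0017 by edgeR) and with CC (0.19, adjusted p = 0.044), and passed in neither comparison of CC against Veh.

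Of 16 transcription factor genes known to act at cytokine loci, CC raised 4 and lowered 2 in normal libraries, and raised 8 and lowered 3 in steatotic libraries, beside 6.27% and 5.54%, and 12.0% and 10.9%, of all tested genes. *Maf*, an activator of *Il10* in macrophages, was at 361 ± 1.31, 250 ± 6.9, 765 ± 10.1 and 454 ± 4.35 CPM in normal Veh, normal CC, steatotic Veh and steatotic CC. It was thus highest in steatotic Veh, as *Il10* was, and fell with CC by 0.49 (adjusted p = 0.000154) and 0.74 (adjusted p = 7.83e-06) on the log2 scale by edgeR. *Bhlhe40*, a repressor of *Il10* transcription, was at 132 ± 1.11, 219 ± 5.86, 41.4 ± 1.87 and 198 ± 20.2 CPM. It was lowest where *Il10* was highest, and rose with CC by 0.77 in normal and 2.27 in steatotic libraries (adjusted p = 0.000545 and 2.51e-06 by edgeR). The other groups did not follow this order, since both *Bhlhe40* and *Il10* were higher in steatotic CC than in normal Veh (*Il10* at 12.2 and 6.28 CPM). In normal libraries *Maf* fell and *Bhlhe40* rose with CC, while *Il10* was at −0.11 (adjusted p = 0.689 by edgeR). *Cebpb*, whose product binds the *Il6* promoter, rose in steatotic libraries from 64.4 ± 0.47 to 105 ± 7.38 CPM (log2 fold change 0.72, adjusted p = 0.00284 by edgeR), and was at 0.19 (adjusted p = 0.322) in normal libraries. *Egr1* and *Atf3* rose with both labels, *Egr1* by 1.59 and 2.36 and *Atf3* by 0.80 and 1.02. The difference between the responses passed for *Bhlhe40* (1.5), *Egr1* (0.76), *Maf* (−0.25) and *Nfkbiz* (−0.42), whereas that of *Cebpb* did not (0.53, adjusted p = 0.142 by edgeR). Any part of these factors in the cytokine values was not tested.

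**Figure D4:**
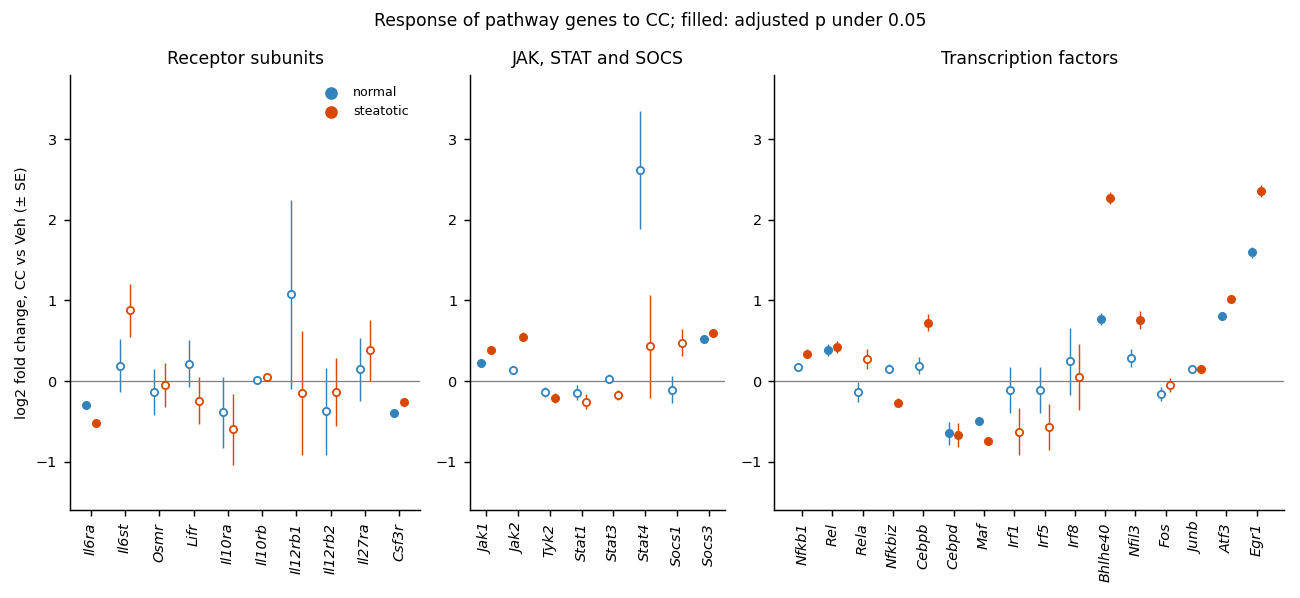
Log2 fold change with CC against Veh (vertical axis, bars ± SE) for receptor subunits (left, without *Il23r*, which was near 0), JAK, STAT and SOCS genes (middle) and transcription factors (right), in blue for libraries labelled normal and in red for libraries labelled steatotic, filled where the adjusted p by edgeR was under 0.05. *Bhlhe40* and *Egr1* have the highest values in steatotic libraries (2.27 and 2.36), and *Maf*, *Il6ra* and *Csf3r* are filled and below 0 with both labels.

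As a description, the genes whose log2 CPM over the 8 libraries was most like that of each cytokine gene were listed, among genes with a mean of at least 1 CPM. For *Il6* they were *Rbm27* (Pearson r = 0.992), *Spry2* (0.985) and *Cxcl10* (0.984), for *Osm* *Pde5a* (0.99), *Gm11131* (0.985) and *Zbtb32* (0.981), for *Il10* *Krt80*, *Irgm1* (both 0.994) and *Ist1* (0.992), and for *Csf3* *Gm6485* (0.973), *Celsr3* (0.971) and *Mien1* (0.966). For *Ebi3* they were *Plekhf2* (0.998), *Gm3375* (0.997) and *Xrn1* (0.994), for *Il27* *Tmem254c* (0.991), *Pak2* and *Slc7a8* (both 0.987), and for *Lif* *Zfp330* (0.94), *Dsg2* (0.933) and *Aprt* (0.926). The 8 points form 4 groups of 2 and these genes were picked as the highest of many, so these values describe a shared pattern of group means.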

How the data were processed

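Poly(A) RNA of hepatic macrophages was sequenced in 8 libraries, 2 per group. Trimming was by fastp, alignment to mm10 by HISAT2 and quantification by StringTie (versions not given in the sources used here). The authors deposited estimated counts (expected counts) for 55401 genes, which are whole numbers and not normalized, so that no rounding was needed. Small values were multiples of 4 more often than large ones, so 1 fragment was taken as about 4 counts. Total counts per library were 58668655 to 74529462, and 3 fragments, the floor used, correspond to 0.161 to 0.205 CPM. These floors cover counting error only.

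Libraries were grouped by their labels. The labels do not say whether the libraries come from separate animals, so p-values measure only the spread between these libraries. The 15202 genes (of 28711 with any count) that reached 0.5 CPM in 1 or more libraries were tested with edgeR 4.0.16 (glmQLFit, robust, and glmQLFTest, TMM factors 0.981 to 1.03) in R 4.3.3, in 1 model of 4 group means. Benjamini-Hochberg adjustment covered every tested gene in a comparison, and the threshold was 0.05. Fold changes have the default prior count of edgeR. CPM are relative to the total of a library, without the TMM factor.

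The cytokine genes and the lists of receptors, transducers, transcription factors and cell markers were chosen with earlier results of these data known. By rule, all 10 genes are named, with the members of the other lists that passed in at least 1 comparison, at most 8 per list by lowest adjusted p, and the 3 genes most correlated with each cytokine gene (those of *Il12a* are not reported here). *Il6st*, *Mc4r*, the overlapping genes and the markers of other cells were named outside this rule. Levels per kb used the union of exons in GENCODE M21. Promoter sequences were taken from RefSeq and searched for textbook motifs, and 3′ UTR pentamers were counted after the values were seen. The alternatives were DESeq2 1.42.0, edgeR with the size factors of DESeq2 or with library size alone, no filter or a stricter one, counts divided by 4, a prior count of 4, a replicate block, only the 4 libraries of a comparison (not for the difference), an adjusted p under 0.1, and leaving out each library. The steps were tested on simulated data. Figures were drawn with matplotlib 3.10.9.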

Additional observations from a re-analysis of the deposited data

Results flagged for a closer look

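The difference between the CC responses, tested as steatotic minus normal in the edgeR model, passed an adjusted p of 0.05 for 9 of 70 tested genes of the lists measured beside the cytokines, 4 higher and 5 lower, where 1.95% and 1.27% of all tested genes passed. It was 0.41 on the log2 scale for *Jak2* (adjusted p = 0.0276), −0.42 for *Nfkbiz* (adjusted p = 0.0348), −0.25 for *Maf* (adjusted p = 0.0409), 1.5 for *Bhlhe40* (adjusted p = 0.0011), 0.76 for *Egr1* (adjusted p = 0.00659) and, among markers of cell types, 1.31 for *S100a8* (adjusted p = 0.0101), −0.30 for *Adgre1* (adjusted p = 0.0205), −0.50 for *Vsig4* (adjusted p = 0.0367) and −1.20 for *Pecam1* (adjusted p = 0.00368). *Nfkbiz*, an IκB family protein needed for *Il6* induction, went from 90.8 ± 3.62 to 74.3 ± 3.33 CPM (SD, n = 2) with CC in libraries labelled steatotic and from 56 ± 1.4 to 60.7 ± 1.79 CPM in those labelled normal. No cytokine gene of the 10 passed this test, and groups of 2 libraries are too small to look for outlying samples.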

How the results depend on the processing

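With each library left out in turn, which leaves a lone library assumed to vary like the other groups, the cytokine genes called numbered 0 to 1 for CC in normal libraries, 2 to 4 for CC in steatotic libraries (2 without steatotic CC replicate 2), 0 to 1 for the difference, 1 to 4 for steatotic against normal with Veh (1 without normal Veh replicate 1, normal Veh replicate 2 or steatotic Veh replicate 1) and 3 to 5 with CC (3 without normal CC replicate 2 or steatotic CC replicate 1). At an adjusted p under 0.1, 6 were called with Veh. With a replicate block the calls were 0, 4, 0, 3 and 4, the lost one being *Il6* with CC (1.08, adjusted p = 0.072 by edgeR). The deviations of libraries with the same number correlated at −0.00224 to 0.189 between groups, over 0.1 in 3 of 6 pairs of groups and not in all, so the numbers were not taken as pairing. Signs turned only for values that passed no test. *Ebi3* with CC in normal libraries was −0.0295 by library size only and −0.0064 with any count kept, and the fitted *Il12a* difference, from which nothing is read, was 0.249 with counts divided by 4 and 1.07 with a prior count of 4. Leaving out libraries gave −0.815 to 0.372 for *Osm*, −0.262 to 0.0704 for *Il10*, −0.0154 to 0.0429 for *Ebi3* and 0 to 5.57 for *Il12a* with CC in normal libraries, −3.08 to 2.49 for the *Il12a* difference, −0.357 to 0.36 for *Lif* with CC in steatotic libraries, −0.746 to 0.221 for *Il6* with Veh between livers, and −0.455 to 0.262 for *Lif* and −0.098 to 0.715 for *Csf3* with CC between livers. *Ebi3* with Veh between livers also missed the threshold in edgeR by library size only (adjusted p = 0.07), with any count kept (0.0545) and with 4 libraries only (0.0657), and *Csf3* passed in the same 3 settings (0.0442, 0.0356 and 0.0241) and without steatotic CC replicate 1 or 2 (0.0166 or 0.0148). The cause of these changes was not tested. *Il6* and *Csf3* with CC in steatotic libraries, *Il10* between the livers, and *Osm* and *Ebi3* between the livers with CC passed under all alternatives run. With 2 libraries per group and 29.3 to 37.3 counts at the filter, genes near 0.5 CPM carry a large error.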
